A study of Mus musculus with 2 samples.

Results

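The cells described here are mesenchymal cells of the embryonic mouse heart, 446 of the 10039 cells that passed the quality limits in a pair of single-cell RNA libraries. A cell was chosen when it carried at least 1 UMI (a tagged RNA molecule counted once) of each of Postn, Twist1 and Papss2, and when the UMIs of these genes and of Sox9 summed to at least 5 per 10000 of the cell's UMIs. It also had to miss 3 gates: Ttn at 8 or more per 10000 for heart muscle, 3 or more of 6 endothelial genes detected, and 2 or more UMIs of the epicardial genes Wt1 and Upk3b. The library labelled knockout came from BubR1fl/fl hearts and held 189 such cells, and the library labelled wildtype came from BubR1+/+ hearts and held 257. Both groups carried 1 copy of Nkx2.5-cre and were dissected at E10.5. Each library pooled 4 hearts, so there was 1 library per group and no replicate.

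BubR1, encoded by Bub1b, is a spindle checkpoint protein that holds back anaphase until the chromosomes are attached to the spindle. Nkx2.5-cre is active in cardiac progenitors, and the labels do not say which cells of the hearts had lost the floxed sequence. Mesenchyme of the endocardial cushions forms when endocardial cells leave the lining of the heart tube, enter a gel rich in hyaluronan and versican, divide, and later build the collagen of valves and septa. Bmp and Tgfb signals start this change and transcription factors such as Twist1, Sox9 and Tbx20 act in the cells. In the outflow tract, neural crest and second heart field cells add to the cushion.

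With 1 library per group there was no test of the genotype, and differences below compare these libraries. Levels are counts per 1000000 UMIs (CPM), summed over the chosen cells of a library, and square brackets give exact 95% intervals that cover counting error only. The chosen cells labelled knockout held 2434225 UMIs with a median of 12166 per cell, and those labelled wildtype 2264761 with a median of 8150. The medians of genes per cell were 4071 and 3285. No barcode of a chosen cell was found in both libraries, and 4 barcodes were shared among all cells kept.

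The libraries also stood apart in ways the labels do not give. Over all barcodes, the embryonic globins Hbb-bh1 and Hba-x made up 37.5% of globin UMIs in the library labelled knockout and 5.49% in that labelled wildtype, and the adult chains Hbb-bs and Hbb-bt 2.98% and 30.9%, although both carry the label E10.5. The Y-linked genes Ddx3y, Eif2s3y, Kdm5d and Uty summed to 0 UMIs in the chosen cells labelled knockout and to 339 UMIs (150 CPM) in those labelled wildtype. Xist stood at 725 and 390 CPM. Genotype, the stage the hearts had reached, sex, the makeup of the pools and the library cannot be told apart here. Free RNA accounted for at most 1.97% of the UMIs of the chosen cells labelled knockout and 4.51% of those labelled wildtype.

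The chosen cells made up 3.94% [3.41, 4.53] of the kept cells in the library labelled knockout and 4.91% [4.34, 5.53] in that labelled wildtype. Of the cells that passed the 3 gates they were 22.0% [19.2, 24.9] of 861 and 13.4% [11.9, 15] of 1921. The order thus turned with the denominator. Detection grows with depth: when every barcode was thinned to 3000 UMIs before the choice, 76 and 146 cells were left. The marker sum that chose the cells had medians of 25.5 and 33.4 per 10000. Next to its threshold, 4 cells labelled knockout with all 3 genes fell short, the highest at 4.50, and the lowest inside had 5.33. In the library labelled wildtype 12 fell short, the highest at 4.57, and the lowest inside had 5.14.

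The genes of the choice are given as a description. Postn, a matricellular protein of the cushions, stood at 433 CPM in cells labelled knockout and 1473 CPM in cells labelled wildtype. Twist1, a transcription factor of mesenchyme, had 937 and 667 CPM, Papss2, which makes the sulfate donor of proteoglycans, 479 and 549 CPM, and Sox9, a factor of cartilage and valve precursors, 636 and 589 CPM. At 3000 UMIs per cell, the median cell had 1 Postn UMI in the library labelled knockout, with quartiles of 0 and 2, and 4 in that labelled wildtype, with quartiles of 2 and 6. Without Postn in the choice, 195 and 225 cells were chosen, of which 177 and 217 were the same cells.

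Beside the rest of the kept cells, genes outside the choice also marked the chosen cells in both libraries. Cthrc1, a secreted matrix protein, had 518 CPM in chosen cells and 23.8 CPM in the rest of the library labelled knockout, and 396 and 32.6 CPM in that labelled wildtype. Vcan, the versican core protein, had 2491 and 221 CPM in the library labelled knockout and 2165 and 244 CPM in that labelled wildtype. Has2, the hyaluronan synthase, had 219 and 14 CPM, then 146 and 9.28 CPM. Col9a1, Bmper, Col9a3, Grm7, Pdlim3, Lef1, Rtn1, Tgfbi and Tbx20 completed the first 15 with Papss2, Twist1 and Postn. No test follows from this, since the cells were chosen on expression.

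The working name of these cells was held against regional genes, which detection of a list alone could not settle. After thinning to 3000 UMIs, a UMI of the 7 cardiac cushion genes (Tbx20, Gata4, Gata5, Gata6, Tbx2, Hapln1 and Nfatc1) was found in 100.0% of cells labelled knockout and 98.4% of cells labelled wildtype. The same list was found in 90.1% and 77.2% of endothelial cells, 89.4% and 88.1% of epicardial cells and 85.1% and 87.4% of heart muscle cells, so it is not particular to the chosen cells. Of 18 pharyngeal and neural crest genes, among them Tfap2a, Tfap2b, Dlx5, Hoxa3, Pax3 and Sox10, 16 were at 3 UMIs or fewer in cells labelled knockout and 12 in cells labelled wildtype. Only Ets1, which endothelial cells also express, reached 100 UMIs, with 84.6 and 97.1 CPM. A UMI of the 18 genes was found in 17.5% and 23.0% of thinned cells. Without thinning it was found in 56.1% and 48.2%, so the order of the libraries turned. The 11 second heart field genes summed to 60.8 CPM and 255 CPM, nearly all of it Mef2c (34.5 and 179 CPM) and Tbx5 (21.8 and 56.1 CPM), and were found in 13.2% and 42.0% of thinned cells, or 42.3% and 68.9% without thinning. Heart muscle cells held that list in 67.4% and 55.0% of thinned cells. Isl1 had 1.23 and 4.42 CPM, and Fgf8 and Tbx1 were at 0 in both. Because these lists do not place the cells in 1 region, they are called mesenchymal cells below.

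Of the lists of other cell types, the 7 erythroid genes had the highest sums, 999 and 1430 CPM, nearly all of it the globins Hbb-y, Hba-x and Hbb-bh1. The 5 smooth muscle genes summed to 417 and 467 CPM, mostly Tagln, with the defining myosin Myh11 at 1 UMI in each library. Of 6 macrophage genes, 4 were at 0 in cells labelled knockout and none in cells labelled wildtype, with sums of 3.29 and 67.6 CPM. The 8 endothelial genes summed to 138 and 121 CPM and the 8 epicardial genes to 87.1 and 134 CPM; a cell could hold a few of these and pass the gates. The 8 heart muscle genes summed to 568 and 416 CPM, of which Tnni1 gave 378 and 102 CPM and the defining myosin Myh6 4.52 and 4.86 CPM. Of the 5 crest and glial genes, Foxd3 was at 0 in both libraries and Sox10 had 2.46 and 0.883 CPM. The 5 hepatic genes summed to 6.98 and 0 CPM.

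Bub1b (chr2:118598211-118641591, plus strand of GRCm38) is the targeted gene. It stood at 50.5 CPM [42.0, 60.3] in mesenchymal cells labelled knockout and 55.2 CPM [45.9, 65.8] in those labelled wildtype, with 123 and 125 UMIs. The levels lay within counting error of each other, a log2 ratio of -0.13 [-0.50, 0.24]. The ratio was 0.71 with every chosen cell thinned to 3000 UMIs and 0.51 with the choice made after thinning, both without an interval. Few thinned cells held a Bub1b UMI, 25 of 189 (13.2% [8.75, 18.9]) and 20 of 257 (7.78% [4.82, 11.8]). These intervals overlap, so the direction is not settled. In heart muscle cells, gated on Ttn, the same gene had 29.4 and 59.1 CPM, a log2 ratio of -1.01 [-1.22, -0.80]. In cells gated on endothelial genes it had 36.6 and 25 CPM and in cells gated on epicardial genes 44.6 and 40.8 CPM. The assay counts the end of the RNA, and neither labels nor files say which part loxP sites flank, so this count does not check the deletion. The partners of BubR1 at the checkpoint lay close to their wildtype level in the mesenchymal cells: Bub1, the kinase, had 58.3 and 46.4 CPM (0.33 [-0.04, 0.71]) and Bub3 125 and 109 CPM (0.20 [-0.05, 0.44]).

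Across the mesenchymal cells, 6883 genes had at least 100 UMIs over both libraries. Of these, 650 (9.44%) were at least 1.5-fold higher in the library labelled knockout and 1024 (14.9%) at least 1.5-fold lower, with a median log2 ratio over all genes of -0.03. Genes past this fold are called higher or lower below, and the shares of a gene list are to be read against these. Fibrous matrix genes, several guidance cues and several Wnt modulators were lower in the library labelled knockout. DNA replication genes, several glycolytic enzymes, Hapln1 and Hmga2 were higher.

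**Figure D1:**
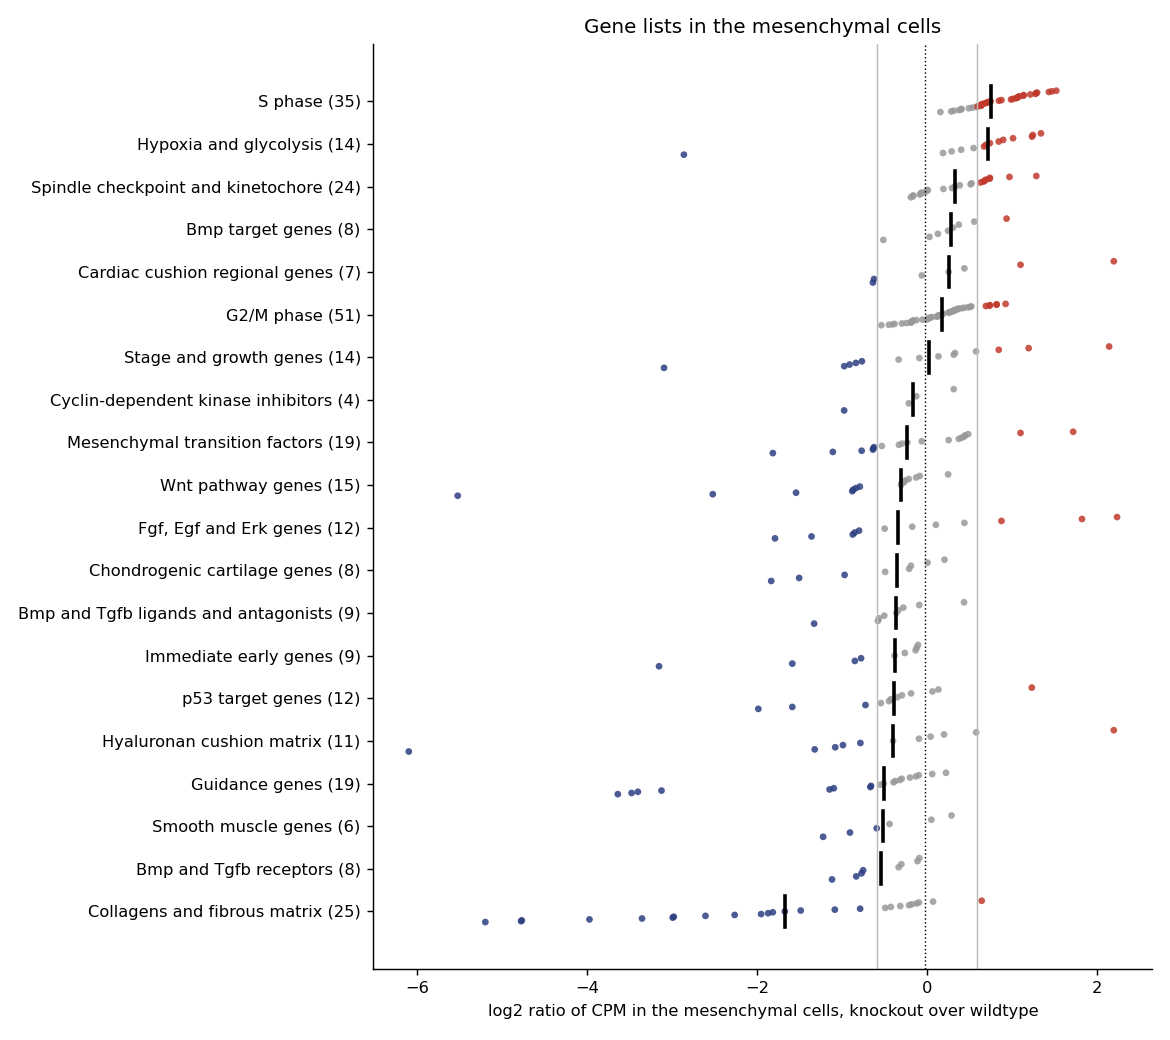
Log2 ratio of CPM in the mesenchymal cells, knockout over wildtype, for each gene with at least 100 UMIs (1 point per gene, number of genes in parentheses; genes of the choice left out). Red points are at least 1.5-fold higher and blue points at least 1.5-fold lower, black bars are list medians and the dotted line is the median of all genes at -0.03; the S phase median lies at 0.75 and the collagen and fibrous matrix median at -1.67.

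Most fibrous matrix genes were lower. Of 25 collagens, small proteoglycans, elastic fibre and crosslinking genes, 16 were lower in cells labelled knockout and 1 was higher, with a median log2 ratio of -1.67. The summed list had 5240 CPM in cells labelled knockout and 10658 CPM in cells labelled wildtype. Col1a1, a chain of collagen I, had 142 CPM in cells labelled knockout and 865 CPM in those labelled wildtype (-2.60 [-2.77, -2.44]). Its partner Col1a2 had 94.5 and 751 CPM (-2.99 [-3.20, -2.79]), and Col3a1, the collagen III chain, 601 and 1680 CPM (-1.48 [-1.57, -1.40]). All 3 collagen genes were thus lower in the library labelled knockout by amounts far wider than counting error.

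The proteoglycans that space collagen fibrils were lower still. Lum, lumican, had 62 UMIs (25.5 CPM) in cells labelled knockout and 1579 UMIs (697 CPM) in those labelled wildtype, a log2 ratio of -4.77 [-5.16, -4.41]. Dcn, decorin, had 22 UMIs (9.04 CPM) and 750 UMIs (331 CPM), at -5.20 [-5.88, -4.59]. Both were nearly lacking in the mesenchymal cells labelled knockout. Dcn was not lacking in that library, whose epicardial cells had 512 CPM of it, while Lum had 33.7 CPM in those cells. Among elastic fibre genes Eln, elastin, had 14.8 and 232 CPM, Fbln5, a fibulin of elastic fibres, 2.46 and 67.1 CPM, Mfap4 42.7 and 336 CPM, and Lox, which crosslinks collagen and elastin, 11.1 and 35.3 CPM. Elastic fibre genes were not all apart, since Fbn2, fibrillin 2, had 1225 and 1331 CPM (-0.12) and Emilin1 112 and 126 CPM (-0.18). Sparc (866 and 923 CPM), Loxl2 (256 and 243 CPM) and Col2a1 (38.2 and 44.2 CPM) were also inside the fold. Fn1, fibronectin, which early cushion cells migrate on, was the member that was higher, at 702 and 449 CPM (0.65 [0.53, 0.76]).

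The hyaluronan gel did not move as a block. Of 11 genes of the cushion jelly and its remodelling, 1 was higher and 5 were lower, with a median of -0.40. Hapln1, the link protein that ties versican to hyaluronan, had 4386 UMIs (1802 CPM) in cells labelled knockout and 888 UMIs (392.1 CPM) in those labelled wildtype, a log2 ratio of 2.20 [2.10, 2.31]. Vcan itself had 2491 and 2165 CPM (0.20 [0.15, 0.26]), Has2 219 and 146 CPM (0.58 [0.38, 0.78]) and Ugdh, which makes a hyaluronan precursor, 155 and 165 CPM (-0.09). Link protein thus had the highest ratio, and the core protein lay inside the fold. The synthase lay at its edge, at 0.580 against a limit of 0.585, with an interval on both sides of it. Adamts19, a secreted metalloprotease, had 23 UMIs (9.45 CPM) in cells labelled knockout and 1464 UMIs (646 CPM) in cells labelled wildtype, at -6.10 [-6.76, -5.51]. Fbln1 (129 and 257 CPM) and Fbln2 (305 and 524 CPM), Tnc, tenascin C (57.5 and 121 CPM), and the hyaluronan receptor Cd44 (24.2 and 60.5 CPM) were the other 4 that were lower.

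**Figure D2:**
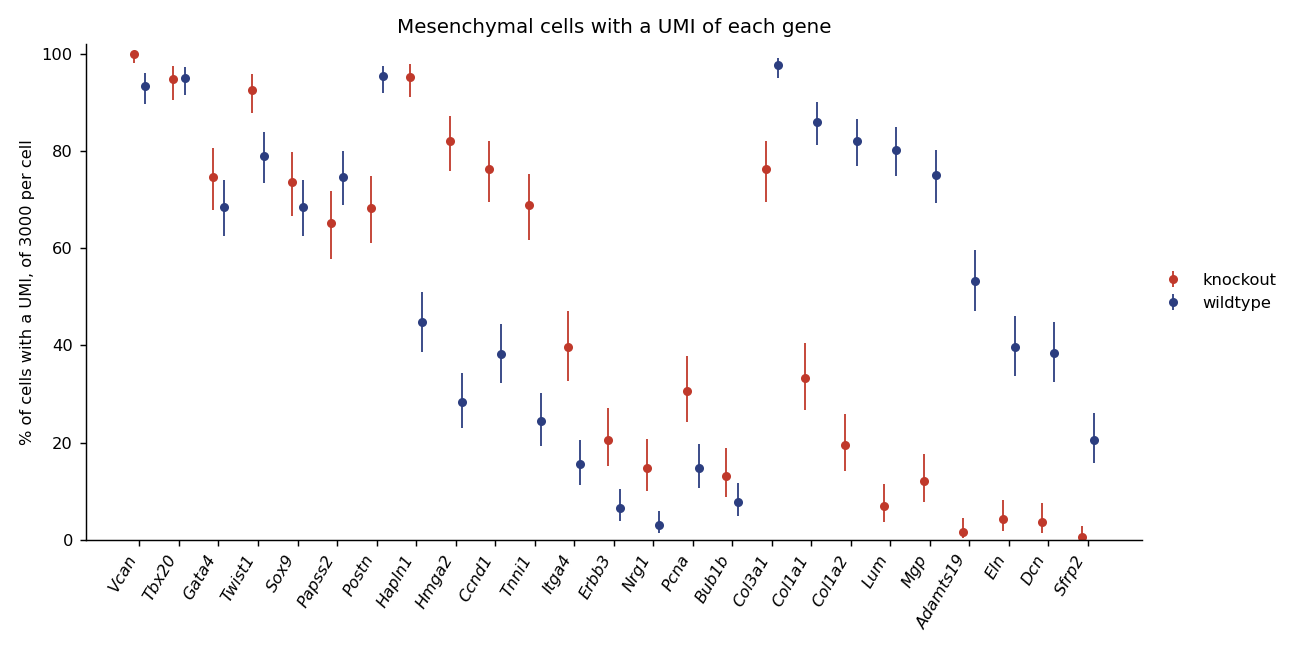
Share of mesenchymal cells with at least 1 UMI of each gene after every cell was thinned to 3000 UMIs (points, knockout left and wildtype right; bars are exact 95% binomial intervals; 189 and 257 cells). Hapln1 was found in 95.2% of cells labelled knockout and 44.7% of cells labelled wildtype, and Lum in 6.88% and 80.2%.

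The same genes were read cell by cell, at an equal 3000 UMIs. Hapln1 was found in 95.2% [91.2, 97.8] of cells labelled knockout and 44.7% [38.6, 51.1] of cells labelled wildtype, and Hmga2 in 82.0% [75.8, 87.2] and 28.4% [23.0, 34.3]. Lum was found in 6.88% [3.71, 11.5] and 80.2% [74.7, 84.9], Dcn in 3.70% [1.5, 7.48] and 38.5% [32.5, 44.8], and Col1a1 in 33.3% and 86.0%. In heart muscle cells, set beside them as a class that should lack these matrix genes, Lum was found in 0.193% and 1.60%, Dcn in 0.386% and 3.55% and Hapln1 in 2.51% and 2.13% at the same depth. The shares in mesenchymal cells stood above those in both libraries, by little for Dcn in the library labelled knockout.

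Cells that carried both kinds of gene were the commonest state in each library. Cells with a UMI of Hapln1 or Hmga2 and none of Col1a1, Col1a2, Lum, Dcn or Eln were 87 of 189 in the library labelled knockout (46.0% [38.8, 53.4]) and 3 of 257 in that labelled wildtype (1.17% [0.241, 3.37]). The opposite pattern was found in 1 of 189 cells (0.529% [0.0134, 2.91]) and in 104 of 257 (40.5% [34.4, 46.7]). Cells with UMIs of both sets made up 51.9% [44.5, 59.2] and 58.0% [51.7, 64.1]. The summed fibrous list had a median of 15 UMIs per cell in the library labelled knockout, with quartiles of 11 and 19, and 32 in that labelled wildtype, with quartiles of 25 and 39, so the middle ranges did not overlap. The hyaluronan list had medians of 15 and 14 UMIs per cell, with overlapping middle ranges. These genes were singled out after their summed levels were known.

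Cartilage genes are shared by valve mesenchyme and skeletal precursors. Of 8 with enough UMIs none was higher and 3 were lower, with a median of -0.35. Sox5 (925 and 1053 CPM, -0.19) and Sox6 (549 and 476 CPM, 0.21), the partners of Sox9, were inside the fold, as was Col9a3 (147 and 147 CPM). Scx, a tendon and valve factor, had 18.5 and 65.8 CPM (-1.83), Col9a2, a chain of collagen IX, 13.6 and 38.4 CPM, and Matn4, a matrilin, 25.1 and 49 CPM (-0.97). Acan and Matn1 were at 0 UMIs in both libraries, which allows up to 1.23 and 1.32 CPM.

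Transcription factors of mesenchymal transition were mixed. Of 19 outside the choice 2 were higher and 6 lower, with a median of -0.23. Foxc2, a forkhead factor of mesenchyme and outflow development, had 48.1 and 14.6 CPM (1.72), and Gata5, an endocardial and cushion factor, 49.3 and 23.0 CPM (1.10). These were the higher members. Tbx20, which drives proliferation of cushion cells, had 1447 and 2227 CPM (-0.62 [-0.68, -0.56]), Meox1 47.7 and 167 CPM (-1.81), Prrx1 128 and 275 CPM (-1.11), Tbx3 29.6 and 50.3 CPM (-0.77), Zeb1 268 and 414 CPM (-0.63) and Nfatc1, an endocardial factor, 29.6 and 45.9 CPM (-0.63). The transition repressors Snai1 (51.4 and 36.6 CPM, 0.49) and Snai2 (82.6 and 101 CPM, -0.29), and Gata4 (578 and 483 CPM) and Gata6 (363 and 378 CPM), lay inside the fold.

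Ligands, receptors and targets of Bmp and Tgfb signalling differed in their medians. Of 9 ligands and antagonists 1 was lower and none higher (median -0.36): the ligand Bmp6 had 80.1 and 201 CPM (-1.33), while Bmp2 (57.1 and 80.8 CPM, -0.50), Bmp4 (40.7 and 43.3 CPM, -0.09) and Tgfb2 (239 and 353 CPM, -0.56) were inside the fold. Of 8 receptors 4 were lower and none higher (median -0.54). These were Acvr2a (25.9 and 56.1 CPM), Tgfbr1 (83.4 and 148 CPM), Tgfbr2 (21.8 and 37.1 CPM) and Tgfbr3 (16 and 26.9 CPM), whereas the Bmp receptors Bmpr1a (164 and 202 CPM) and Bmpr2 (188 and 203 CPM) were not. Of 8 target genes 1 was higher and none lower (median 0.28). That was Id2, an inhibitor of helix-loop-helix factors, at 850 and 444 CPM (0.94), beside Id1 (583 and 471 CPM, 0.31), Id3 (974 and 819 CPM, 0.25) and the inhibitory Smad6 (445 and 302 CPM, 0.56). The medians of ligands and receptors were below that of all genes, -0.03, and that of the targets above it. Of all genes 14.9% were lower and 9.44% higher, so the counts of lower ligands and of higher targets lay near the shares of all genes.

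Several secreted Wnt modulators were lower. Of 15 Wnt pathway genes 7 were lower, none was higher and 8 lay inside the fold, with a median of -0.30. Sfrp2, a secreted frizzled-related protein, had 7 UMIs (2.88 CPM) and 299 UMIs (132 CPM), at -5.52 [-6.85, -4.46]. Rspo3, a secreted Wnt enhancer, had 33.3 and 191 CPM (-2.52), and Dkk3 33.3 and 96.7 CPM (-1.54). The feedback targets Axin2 (20.5 and 36.6 CPM, -0.84) and Znrf3 (101 and 185 CPM, -0.87) and the inhibitors Sfrp1 (80.5 and 148 CPM) and Dkk2 (23.0 and 39.7 CPM) were the other 4. Lef1 (242 and 298 CPM, -0.30), the nuclear effector, and the ligands Wnt5a (48.5 and 57.8 CPM) and Wnt5b (42.3 and 52.1 CPM) were inside the fold.

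Neuregulin signalling held a pair of the genes with the highest ratios. Nrg1, the ligand, had 213 UMIs (87.5 CPM) in cells labelled knockout and 42 UMIs (18.5 CPM) in those labelled wildtype, at 2.24 [1.76, 2.75]. Its receptor Erbb3, which cushion mesenchyme carries, had 90.8 and 25.6 CPM (1.83 [1.40, 2.27]). Erbb3 also marks neural crest and glia, whose defining genes Sox10 and Foxd3 were at or near 0 in both libraries. Endothelial cells had 438 and 420 CPM of Nrg1, so that ligand level differed there by 0.06 on the log2 scale. Of 12 Fgf, Egf and Erk genes 3 were higher and 5 lower. The third higher gene was Pdgfc (33.3 and 18.1 CPM, 0.88), and the lower ones were Egfr (15.6 and 53.9 CPM), Spry2 (19.3 and 49.5 CPM), Fgfr1 (50.5 and 91.0 CPM), Fgfr2 (266 and 487 CPM) and Pdgfrb (57.9 and 101 CPM). Pdgfra, a receptor of mesenchyme, had 248 and 230 CPM (0.11).

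Guidance genes were lower or inside the fold. Of 19, 8 were lower and none higher, with a median of -0.51. The secreted ligands Slit2 (44.0 and 383 CPM, -3.12) and Slit3 (5.75 and 71.5 CPM, -3.64), and the semaphorins Sema3d (6.98 and 73.7 CPM, -3.40) and Sema5a (18.1 and 201 CPM, -3.47), had the lowest ratios. Of their receptors, Robo1 had 408 and 870 CPM (-1.09) and Robo2 940 and 1004 CPM (-0.09), and Nrp1, a semaphorin receptor, 116 and 184 CPM (-0.66). Sema3c, a ligand of outflow septation, had 30.8 and 48.6 CPM (-0.66). The Slit ligands thus differed more than the receptor Robo2.

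DNA replication genes were higher. Of 35 S phase genes 26 were at least 1.5-fold higher in cells labelled knockout and none lower, with a median of 0.75 and a summed level of 3207 CPM in cells labelled knockout and 1845 CPM in cells labelled wildtype. Pcna, the polymerase clamp, had 148 and 67.1 CPM (1.14 [0.86, 1.42]). Rrm2, a subunit of ribonucleotide reductase, had 85.0 and 29.6 CPM (1.52), Dtl, an adaptor that marks replication proteins for destruction, 63.7 and 23.0 CPM (1.47), Ccne2, cyclin E2, 52.6 and 19.4 CPM (1.44), and the helicase Hells 136 and 55.6 CPM (1.28). The Mcm helicase subunits Mcm2 (57.9 and 29.1 CPM) and Mcm4 (111 and 54.8 CPM) were higher too, and Pola1 (116 and 104 CPM, 0.16) was the closest to equal. At 3000 UMIs per cell the list summed to a median of 8 UMIs in cells labelled knockout, with quartiles of 4 and 13, and 3 in cells labelled wildtype, with quartiles of 2 and 6. The middle ranges overlapped between 4 and 6.

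Many replication genes share promoter letters that E2F factors bind. Promoters from RefSeq on GRCm38.p6, running 250 bases before to 50 after the start, were at hand for 31 of the 43 listed genes. TTTCGCGC, TTTGGCGC or TTTCCCGC was searched on both strands with overlaps allowed, and was found in 11 of the 31 (35.5%) and in 606 of 32851 promoters of all genes (1.84%). Among the listed genes that were higher, 6 of 19 promoters held a match, and 4 of 6 among those inside the fold, so the letters did not follow the ratio within the list. Below are the 3 promoters with a match whose genes had the highest ratios; capitals mark the match on the strand shown, and GCGGGAAA is TTTCCCGC read on the other strand. They lie at chr1:191575495-191575794 on the minus strand (Dtl), chr2:72475969-72476268 on the plus strand (Cdca7, 42.3 and 17.2 CPM) and chr19:38930740-38931039 on the plus strand (Hells).
Dtl: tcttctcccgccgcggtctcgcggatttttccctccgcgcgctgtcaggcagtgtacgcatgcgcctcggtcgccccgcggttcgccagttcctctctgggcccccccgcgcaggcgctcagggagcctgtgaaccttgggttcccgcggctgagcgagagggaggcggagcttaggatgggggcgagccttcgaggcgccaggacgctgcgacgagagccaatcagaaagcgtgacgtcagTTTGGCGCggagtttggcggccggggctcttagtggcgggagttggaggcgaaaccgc
Cdca7: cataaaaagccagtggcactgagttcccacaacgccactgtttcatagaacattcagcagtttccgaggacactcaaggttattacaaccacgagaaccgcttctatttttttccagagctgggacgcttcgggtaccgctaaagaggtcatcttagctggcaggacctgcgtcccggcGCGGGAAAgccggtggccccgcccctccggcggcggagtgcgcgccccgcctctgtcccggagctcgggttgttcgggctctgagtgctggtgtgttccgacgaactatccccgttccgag
Hells: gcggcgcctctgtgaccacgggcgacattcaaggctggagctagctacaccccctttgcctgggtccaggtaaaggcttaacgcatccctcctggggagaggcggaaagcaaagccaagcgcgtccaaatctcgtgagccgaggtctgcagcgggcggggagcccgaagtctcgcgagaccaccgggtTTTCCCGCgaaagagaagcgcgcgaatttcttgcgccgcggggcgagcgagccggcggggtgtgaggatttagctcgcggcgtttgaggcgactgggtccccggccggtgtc
A match describes the letters and shows no binding.

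Fewer genes of mitosis than of replication passed the fold in summed UMIs. Of 51 G2/M genes 6 were higher and none lower (median 0.18), and of 24 spindle checkpoint and kinetochore genes besides Bub1b 8 were higher and none lower (median 0.33). Without cells holding 3 or more UMIs of other cell types, which left 16 and 100 cells, the checkpoint median was -0.19. Hmgb2, a chromatin protein, had 1339 and 704 CPM (0.93), Trip13, an ATPase that turns over checkpoint complexes, 43.1 and 17.7 CPM (1.29), Spc24, of the Ndc80 complex, 95.3 and 48.6 CPM (0.97), Mad2l1, the checkpoint effector Mad2, 41.1 and 25.6 CPM (0.68), and Aurkb, the kinase that corrects attachments, 46.4 and 27.8 CPM (0.74). Mki67 (153 and 174 CPM, -0.18), Cenpf (226 and 253 CPM, -0.16), Plk1 (46.0 and 48.1 CPM, -0.06) and Cdc20 (74.4 and 74.2 CPM, 0.00) were inside the fold. At 3000 UMIs per cell the G2/M list had medians of 17 UMIs in cells labelled knockout (quartiles 8 and 33) and 5 in cells labelled wildtype (quartiles 3 and 18). Summed UMIs weight each cell by its depth, and the mean of per-cell CPM gave the G2/M list a median of 0.38.

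**Figure D3:**
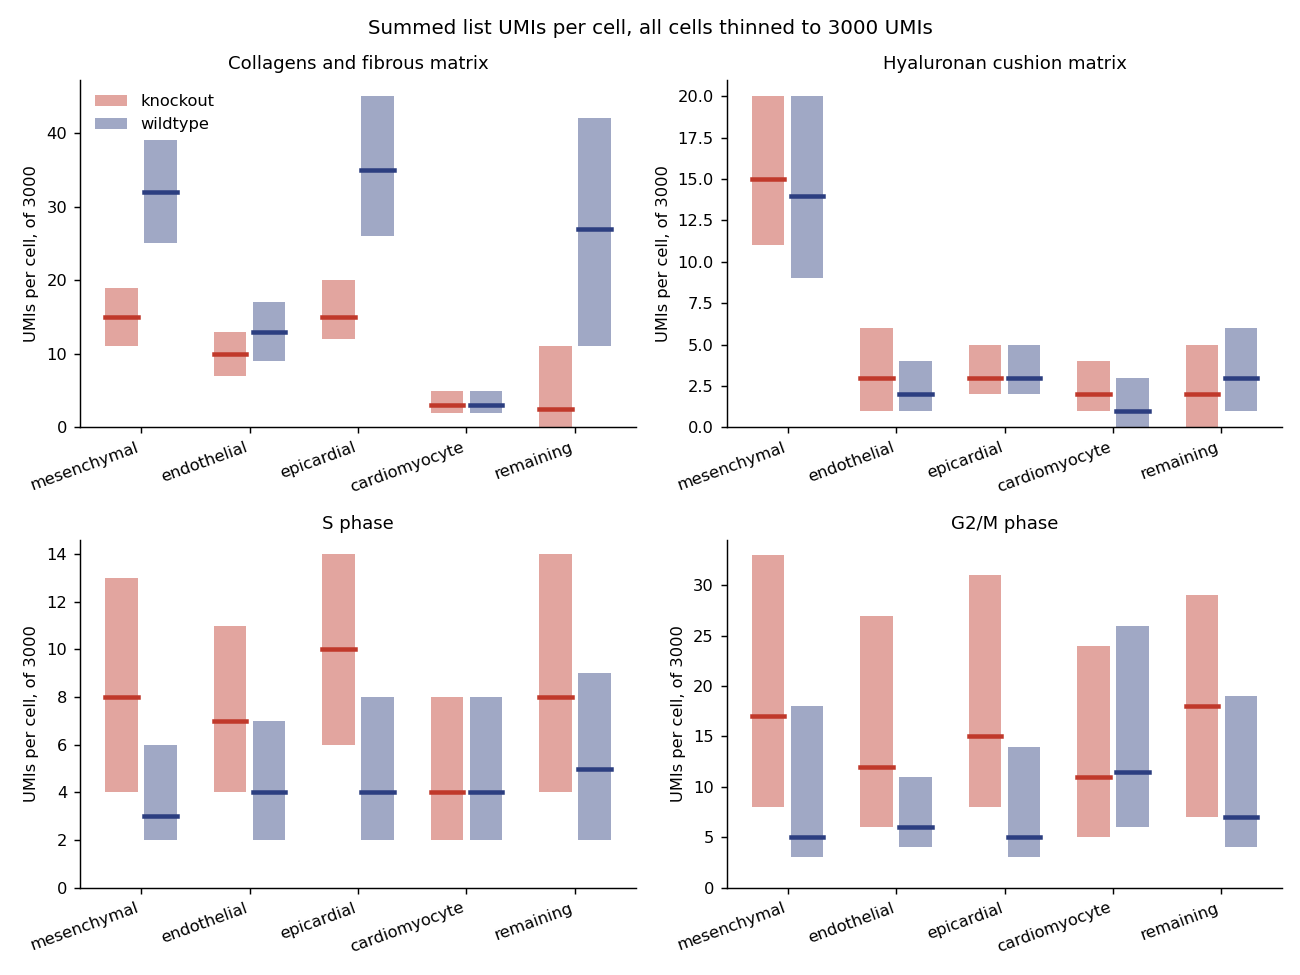
Summed UMIs per cell of 4 gene lists, with every cell thinned to 3000 UMIs (lines are medians, boxes run between quartiles; knockout left and wildtype right), in mesenchymal cells, in cells gated on endothelial, epicardial and heart muscle genes, and in the remaining cells that passed the gates. In mesenchymal cells the fibrous list had medians of 15 and 32 UMIs and the S phase list 8 and 3.

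Targets of p53, the factor that stops or kills cells after damage or missegregation, were not higher as a list. Of 12 genes 1 was higher and 3 were lower, with a median of -0.39. With cells thinned to 3000 UMIs the median was 0.71. Thinning leaves fewer listed genes at 100 UMIs, so these medians are not over the same genes and show no reversal of the list. Cdkn1a, the kinase inhibitor p21, had 10 UMIs (4.11 CPM) in cells labelled knockout and 43 UMIs (19 CPM) in cells labelled wildtype, at -2.21 [-3.37, -1.19]. In heart muscle cells the same gene had 50.2 and 19 CPM (1.40 [1.15, 1.66]). Ccnd1, cyclin D1, which drives entry into S phase and is also listed as a p53 target, was the higher member at 502 and 213 CPM (1.24 [1.08, 1.39]). Mdm2 (27.9 and 40.6 CPM, -0.54) and the apoptosis gene Bax (174 and 159 CPM, 0.14) were inside the fold, and Trp53inp1 (11.5 and 45.5 CPM), Btg2 (13.6 and 40.6 CPM) and Phlda3 (35.3 and 58.3 CPM) were lower. Of the kinase inhibitors, Cdkn1b, p27, had 28.3 and 55.6 CPM (-0.97) and Cdkn1c, p57, 384 and 308 CPM (0.32).

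Chromosome shares were compared because a weakened checkpoint can leave cells with gained or lost chromosomes. The variance between cells of an autosome's share of 3000 UMIs was 1.42 times its binomial variance in mesenchymal cells labelled knockout and 1.75 times in those labelled wildtype, as medians over 19 autosomes. The range was 0.932 to 3.20 in the library labelled knockout and 1.21 to 11.8 in that labelled wildtype, and 2 of 19 autosomes varied more in the library labelled knockout. With the 100 genes of most UMIs left out, the medians were 1.31 and 1.52, again with 2 of 19. In heart muscle cells, 15 of 19 autosomes varied more in the library labelled knockout (3.17 and 2.33), and 11 of 19 did in endothelial cells (1.82 and 1.72). With the 100 genes of most UMIs in the class left out, 16 of 19 varied more in heart muscle cells (2.66 and 1.71) and 9 of 19 in endothelial cells (1.47 and 1.5), where the order of the medians turned. The measure also reads any gene program that differs between cells, so it counts no chromosomes.

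Growth and stage genes split. Of 14, 3 were higher and 5 lower, with a median of 0.02. Hmga2, a chromatin protein of early embryonic cells, had 2092 UMIs (859 CPM) in cells labelled knockout and 440 UMIs (194 CPM) in those labelled wildtype, at 2.15 [2.0, 2.30]. The RNA-binding protein Igf2bp1 had 224 and 97.6 CPM (1.20 [0.97, 1.43]), and Lin28b, which blocks let-7 maturation, 27 and 3 UMIs (11.1 and 1.32 CPM, 3.07 [1.37, 5.43]), under the minimum of 100 UMIs. All 3 had their higher level in the library labelled knockout. The imprinted genes Igf2 (406 and 796 CPM, -0.97), H19 (801 and 1430 CPM, -0.83), Meg3 (256 and 435 CPM, -0.76), Plagl1 (42.3 and 79.5 CPM, -0.91) and Dlk1 (6.57 and 56.1 CPM, -3.09) were lower, and Mest (187 and 104 CPM, 0.85) was higher, so imprinted genes did not share 1 direction. The globins named above differed in the same libraries, and their part in these values was not tested.

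Hmga2, Igf2bp1 and Lin28b are known as targets of the let-7 microRNAs, which were not measured here. Their seed, bases 2 to 8, is in capitals in the mature sequence from RefSeq, and 10 of 11 family members in that table share it. The matching letters CTACCTC were found 4 times in the longest annotated 3′ untranslated region of each of the 3 genes, and at least once in 9 of 15 listed stage genes with such a region and in 1897 of 20831 genes (9.11%). Longer regions hold more chance matches, and these regions run to 3014, 6337 and 4445 bases. Hmga1, Igf1r, Igf2bp2, Igf2bp3, Lin28a and Peg3 held 1 or 2 matches and were not called higher. Mest, which was higher, held 0. The first site followed by A in Hmga2 lies at chr10:120364224-120364253 and that in Igf2bp1 at chr11:95961778-95961807, both on the minus strand of GRCm38, with the match in capitals. let-7a lies at chr13:48538239-48538260 on the minus strand.
mmu-let-7a-5p: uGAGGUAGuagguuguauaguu
Hmga2 site: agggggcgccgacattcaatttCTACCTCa
Igf2bp1 site: aggcagtgctgtgcgaagtaaaCTACCTCa
The letters say nothing on whether the sites were used in these cells.

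Several glycolytic enzymes were higher. Of 14 genes of hypoxia and glycolysis with enough UMIs, 9 were higher and 1 lower, with a median of 0.72. Gapdh had 980 and 526 CPM (0.90), Ldha, lactate dehydrogenase, 620 and 307 CPM (1.01), Eno1, enolase, 200 and 79.0 CPM (1.34), and the glucose transporter Slc2a1 30.4 and 12.8 CPM (1.25). Egln3, an oxygen sensor induced by hypoxia, was the lower member, at 8.22 and 59.6 CPM (-2.86), and Vegfa (12.7 and 18.1 CPM) and Ndrg1 (2.46 and 7.06 CPM) had under 100 UMIs in all. Immediate early genes, which dissociation can induce, had 4 of 9 lower and none higher (median -0.38), with Egr1 at 6.16 and 54.8 CPM (-3.15) and Jun at 118 and 213 CPM (-0.85). Of 6 smooth muscle genes 3 were lower: Acta2 (60.4 and 113 CPM), Tpm2 (46.4 and 108 CPM) and Cald1 (332 and 500 CPM), beside Tagln at 330 and 318 CPM.

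**Figure D4:**
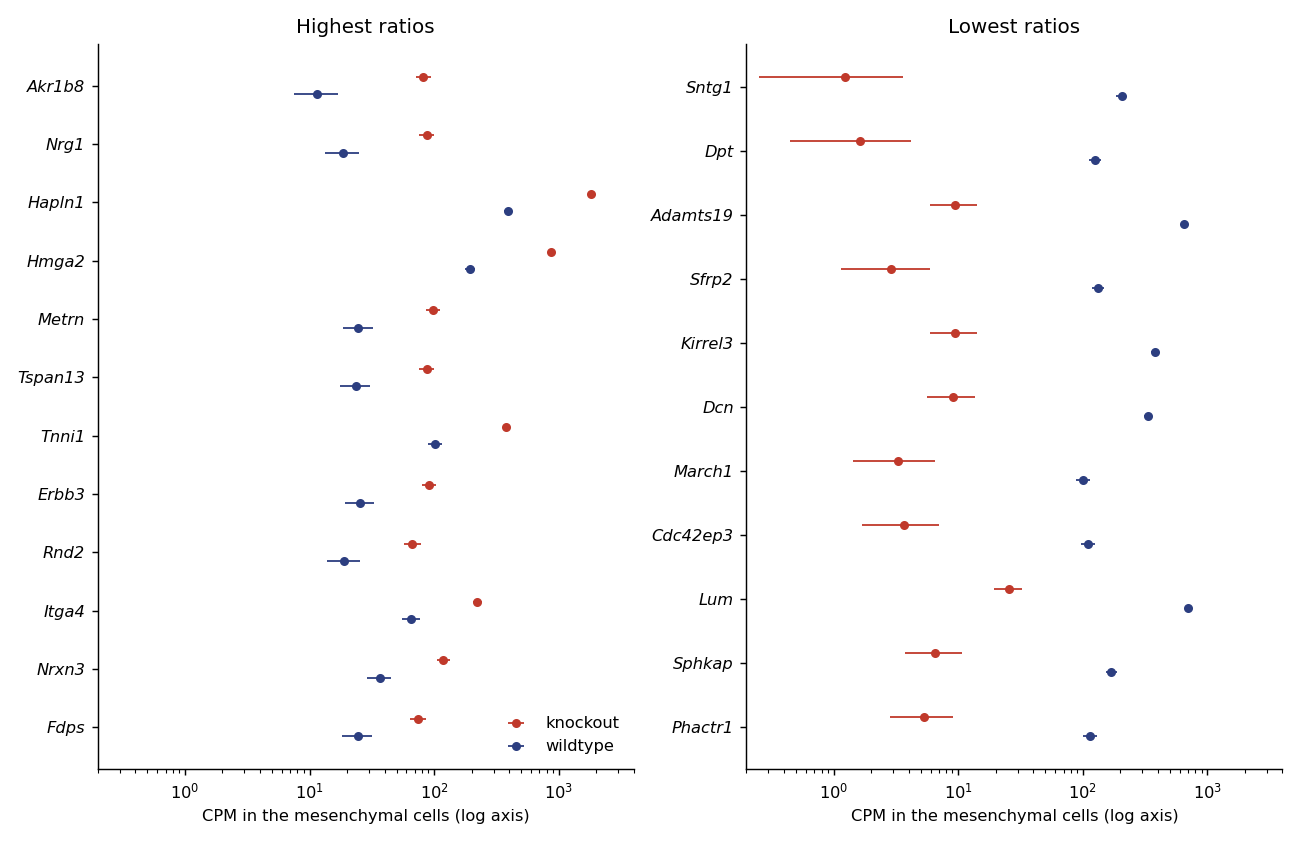
CPM in the mesenchymal cells (log axis) of the named genes with the highest and the lowest ratios, knockout above wildtype; bars are exact 95% Poisson intervals. The lowest genes are near 10 CPM or below in the library labelled knockout apart from Lum at 25.5, and between 100 and 697 CPM in that labelled wildtype.

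Of 3977 genes whose UMIs in both libraries came to 200 or more, with at least 50 CPM in the higher one, the 12 highest ratios ran from 2.84 to 1.61. They were led by Akr1b8, an aldo-keto reductase, with 200 UMIs (82.2 CPM) in cells labelled knockout and 26 UMIs (11.5 CPM) in those labelled wildtype, at 2.84 [2.25, 3.49]. Beside Nrg1, Hapln1, Hmga2 and Erbb3 stood Metrn, a secreted neurotrophic protein (97.4 and 24.7 CPM), the tetraspanin Tspan13 (87.5 and 23.4 CPM), the small GTPase Rnd2 (67.0 and 19 CPM), the adhesion protein Nrxn3 (119 and 36.6 CPM) and Fdps of isoprenoid synthesis (74.4 and 24.3 CPM). Itga4, an integrin chain that binds fibronectin, had 222 and 65.3 CPM (1.76 [1.5, 2.04]), in the same direction as Fn1. Tnni1, the troponin I of the embryonic heart, had 378 and 102 CPM (1.89 [1.68, 2.11]) and was found in 68.8% and 24.5% of thinned cells. Of 5 listed heart muscle genes with at least 100 UMIs, Tnni1 was the 1 that was higher, 2 were lower and 2 lay inside the fold. Tnnt2 had 39.4 and 117 CPM and Actc1 64.1 and 92.3 CPM. Free RNA gave at most 7.47 and 14.8 CPM of Tnni1, and the source of its UMIs was not tested.

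The 12 lowest ratios ran from -7.37 to -4.43. Sntg1, a syntrophin, had 3 UMIs (1.23 CPM) in cells labelled knockout and 463 UMIs (204 CPM) in those labelled wildtype, at -7.37 [-9.66, -5.82]. Dpt, dermatopontin of the collagen matrix, had 4 UMIs (1.64 CPM) and 284 UMIs (125 CPM). Both were nearly lacking in the mesenchymal cells labelled knockout. Kirrel3, an adhesion protein, had 9.45 and 377 CPM, March1, a ubiquitin ligase, 3.29 and 100.2 CPM, Cdc42ep3, an effector of Cdc42, 3.70 and 110 CPM, Sphkap 6.57 and 169 CPM and Phactr1, which binds actin, 5.34 and 115 CPM. Adamts19, Sfrp2, Dcn and Lum, given above, were also among the 12.

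The other cells of the same libraries show which of these differences the mesenchymal cells shared; differences between classes were not tested. The fibrous list had medians of -1.24 in endothelial cells (16 of 25 lower), -1.87 in epicardial cells (23 of 26), -0.71 in heart muscle cells (13 of 21) and -2.96 in the remaining gated cells (26 of 26). Of all genes with enough UMIs in those classes, 13.3%, 17.4%, 8.21% and 28.5% were lower, in the same order. The list median was therefore below 0 in each class set beside the mesenchymal cells, although the heart muscle cells had a median of 3 UMIs of these genes per cell in both libraries. The CPM of Hapln1 also ran the same way in each: 867 and 185 CPM in endothelial, 298 and 20.6 CPM in epicardial, 24.0 and 7.75 CPM in heart muscle and 306 and 66.1 CPM in the remaining cells. Among thinned heart muscle cells, though, it was found in 2.51% [1.34, 4.25] and 2.13% [1.10, 3.69], with overlapping intervals. Hmga2 had 266 and 106, 721 and 271, 142 and 36.0, and 383 and 273 CPM in the same order of classes. The S phase median was 0.51 in endothelial and 0.65 in epicardial cells and -0.07 in heart muscle cells, beside 0.75 in the mesenchymal cells.

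Some differences of the mesenchymal cells were smaller or turned elsewhere. Nrg1 stood at 9.67 and 23.6 CPM in epicardial cells, lower in the library labelled knockout (-1.29 [-1.51, -1.07]), and at 41.0 and 47.9 CPM in the remaining cells, inside the fold. Adamts19 had 5.87 and 8.54 CPM in endothelial cells (-0.54), inside the fold. It was lower in epicardial (-1.56), heart muscle (-1.04) and remaining cells (-2.92), by less than in mesenchymal cells. Tbx20 had 325 and 166 CPM in endothelial cells (0.97), against its lower level in mesenchymal cells. In heart muscle cells Tbx20 was inside the fold (-0.15), and in epicardial (-0.89) and remaining cells (-1.20) it was lower too. Bmp targets had a median of 1.26 in heart muscle cells, where 9 of 9 were higher against 5.25% of all genes there, beside 0.28 in the mesenchymal cells. The S phase, spindle and G2/M lists were above the median of all genes in mesenchymal, endothelial, epicardial and remaining cells. In heart muscle cells the spindle (-0.27) and G2/M (-0.29) medians were below it. The S phase median there was -0.07, close to the -0.01 of all genes, with all 43 genes inside the fold.

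**Figure D5:**
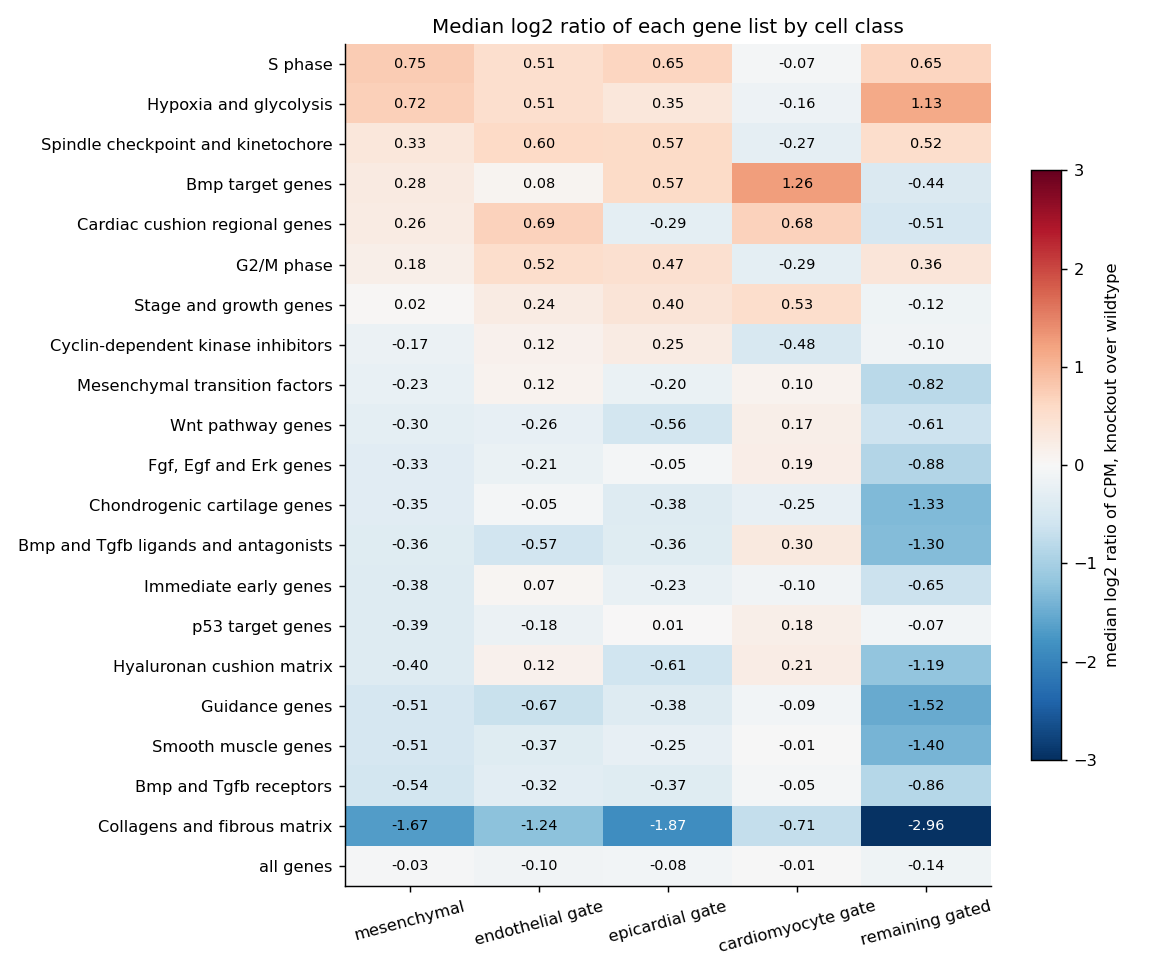
Median log2 ratio of CPM, knockout over wildtype, of each gene list in the mesenchymal cells and in the other cell classes (columns), over genes with at least 100 UMIs in that class; colour and printed number give the same value. The bottom row is the median of all genes, from -0.14 to -0.01.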

How the data were processed

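Single-cell RNA was measured in 1 library per group. The deposited files hold UMI counts per gene and barcode, not normalized, which the authors obtained from Cell Ranger 7.1.0 with mm10, per the submitters' processing notes and the file headers; whether intron reads were counted is not stated there. All 1632950 and 1451246 barcodes of the libraries labelled knockout and wildtype are in the files, of which 4800 and 5239 were kept. Kept cells had at least 3000 UMIs and 500 genes, at most 20% mitochondrial and under 20% hemoglobin UMIs. The gates and the marker choice given above then left 189 and 257 mesenchymal cells. No doublet caller was run; leaving out the 10% of cells with most UMIs was an alternative.

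The mesenchymal cells, the gene lists and the rules were chosen with earlier results of these data known. UMIs were summed over cells, divided by the library's sum and compared as log2 ratios, with exact Poisson and conditional binomial intervals, and Clopper-Pearson intervals for shares. PCR copies are collapsed by UMIs, and intervals cover counting error only. A gene at 0 in 1 library was set to 3 counts. Genes were named by the 12 highest and 12 lowest ratios among genes whose UMIs in both libraries came to 200 or more, with 50 CPM in the higher one, leaving out genes of the choice, mitochondrial, ribosomal protein, hemoglobin, Xist, Tsix and Y-linked genes and gene models named Gm or Rik; list members were named as the examples with the largest and smallest ratios and for their known roles. Symbols given to several IDs (78 rows) took the ID with more UMIs. Free RNA was read from barcodes with 10 to 100 UMIs and scaled by the hemoglobin share, which gives an upper bound. Gene places are from GENCODE vM21 on GRCm38. Scripts were tested on simulated data. Python 3.11.15, NumPy 2.4.6, SciPy 1.17.1, pandas 2.3.3 and matplotlib 3.10.9 were used. Results were recomputed under 16 alternatives, of which 1, the choice without Postn, was added after seeing the data. Some genes of the named set and of the marker lists are not reported here.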

Additional observations from a re-analysis of the deposited data

How the results depend on the processing

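The number of genes called depends on depth and on the minimum. Of genes at least 1.5-fold higher in cells labelled knockout there were 650, against 361 with the cells thinned to 3000 UMIs, 1202 and 212 with a gene minimum of 20 and 500 UMIs, and 278 without cells that held UMIs of other cell types' markers. Of lower genes there were 1024, against 654 with cells chosen after thinning, 471 with chosen cells thinned, 2381 and 221 with the minima of 20 and 500 UMIs, and 370 without cells with other markers. The genes tested also changed, so that higher and lower genes were 13.5% and 17.6% of 2675 with thinned cells, 10.7% and 21.3% of 11185 and 11.7% and 12.1% of 1819 with the minima, and 14.5% and 19.3% of 1922 without cells with other markers. That last setting left 16 cells labelled knockout and 100 labelled wildtype, since Tnni1 and Tubb3 are among those markers. The log2 ratio of Bub1b was 0.51 with cells chosen after thinning, 0.71 with chosen cells thinned and -0.69 without cells with other markers, so its direction is not settled. The spindle list median was 0.73 with cells chosen after thinning and -0.19 without cells with other markers. The G2/M median was 0.57 and 0.51 under the thinned choice and the thinned cells, 0.38 as a mean of cell CPM, 0.34 without the 10% of cells with most UMIs and 0.42 without cells with other markers. The S phase median was 0.64 with a minimum of 500 UMIs and 1.26 without cells with other markers. The p53 median was 0.71 with thinned cells, 0.69 with a minimum of 500 UMIs and 0.61 without cells with other markers. These settings leave fewer p53 genes with enough UMIs, so the medians are not over the same genes. The share of kept cells was 1.58% (knockout) and 2.79% (wildtype) with cells chosen after thinning, and 4.29% (wildtype) without Postn in the choice, a setting added after seeing the data. The cause of these shifts was not tested. Of 288 values of the 24 named genes under the alternatives, 288 kept their sign and 38 moved. Of 304 list medians 291 kept their sign; the fibrous median ran from -1.74 to -1.03. No paired analysis was possible because there is 1 library per group and no replicate number. With 1 library per group, no setting can separate genotype from stage or from the sex, globin and pool differences given above.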
